A study of Homo sapiens with 6 samples.

Results

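The MYC, MAX and MXD network is a set of transcription factors that share a basic helix-loop-helix leucine zipper and pair with each other on DNA. Its 10 members here were MYC, MYCN, MYCL, MAX, MXD1, MXD3, MXD4, MXI1, MNT and MLX, found by gene symbol among the 18164 distinct human genes of the deposited table. RNA was sequenced from HEK293, a long-established line from human embryonic kidney whose genome includes a piece of adenovirus DNA, grown here in suspension. In 3 libraries the cells had received a pair of plasmids with a polymer reagent and were making recombinant adeno-associated virus (AAV). In 3 untransfected libraries they had received PBS and neither DNA nor reagent, so a difference covers plasmids, reagent and virus production together. All 6 libraries were collected at 18 h after transfection, and the labels do not state whether replicates were separate cultures, so p-values reflect only how these libraries differ, which may be technical.

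MYC, MYCN and MYCL activate genes as dimers with MAX, mostly at the DNA sequence called the E-box. The MXD proteins, MXI1 and MNT compete for the same partner and repress, drawing the SIN3 and HDAC corepressor to DNA. MLX pairs instead with the glucose-sensing factors MondoA and ChREBP, and can also take up some of the MXD proteins and MNT. MYC is known for driving growth, ribosome production and nucleotide synthesis, and the MXD genes are known for rising as cells leave the cell cycle.

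MXD3 and MXD4, which encode repressors, were lower in transfected cells, and MYCN was listed at lower values from an already very low level. The abundant activator MYC and the common partner MAX did not pass the test in either direction. MLX and MXD1 had higher values in all 3 transfected libraries but missed the threshold. Among all tested genes 29.2% had every transfected value above every untransfected one, and 17.3% had every transfected value below.

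To show the DNA around the start sites of the members that were lower, and of those with an E-box, promoter sequence was taken from RefSeq (GRCh38.p14), in windows of 300 bases that run from 250 before to 50 after each start. Windows were found for 9 of the 10 members (12 windows, since some have several starts) and not for MYC. Only the part before the start that holds no annotated UTR is printed, 5′ to 3′ on the strand of the gene, with matches in capitals. The motifs searched were the E-box CACGTG, which reads the same on both strands, and the E2F motifs TTTCGCGC, TTTGGCGC, TTTCCCGC and TTTGCCGC on both strands. MXD3 (chr5:177312758-177313002, minus strand), MXD4 (chr4:2262295-2262359, minus strand), MYCN (chr2:15940300-15940549, plus strand), MLX (chr17:42566850-42567067, plus strand) and MNT (chr17:2401119-2401310, minus strand) read as follows.
MXD3: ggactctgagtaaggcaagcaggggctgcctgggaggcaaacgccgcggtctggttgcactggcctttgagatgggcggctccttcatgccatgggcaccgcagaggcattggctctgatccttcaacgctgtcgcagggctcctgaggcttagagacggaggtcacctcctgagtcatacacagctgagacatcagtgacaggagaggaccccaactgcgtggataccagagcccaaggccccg
MXD4: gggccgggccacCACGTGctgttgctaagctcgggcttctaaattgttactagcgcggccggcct
MYCN: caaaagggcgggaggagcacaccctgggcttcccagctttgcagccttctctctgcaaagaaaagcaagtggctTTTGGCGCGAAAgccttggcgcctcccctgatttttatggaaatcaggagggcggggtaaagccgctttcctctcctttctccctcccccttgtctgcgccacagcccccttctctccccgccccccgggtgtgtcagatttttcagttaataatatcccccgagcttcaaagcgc
MLX: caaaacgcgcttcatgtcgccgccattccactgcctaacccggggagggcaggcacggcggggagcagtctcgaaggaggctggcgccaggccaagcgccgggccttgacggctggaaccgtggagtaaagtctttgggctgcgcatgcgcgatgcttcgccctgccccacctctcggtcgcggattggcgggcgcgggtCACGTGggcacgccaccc
MNT: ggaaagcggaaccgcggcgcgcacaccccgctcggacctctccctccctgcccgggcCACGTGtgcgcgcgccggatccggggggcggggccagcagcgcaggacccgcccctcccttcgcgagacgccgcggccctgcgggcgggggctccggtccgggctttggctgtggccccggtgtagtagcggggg

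The E-box CACGTG lay 238 bases before the RefSeq start of MXD4, 193 before that of MNT and 50 before that of MLX. It was in 3 of the 12 member windows (25.0%), against 7.26% of all 35116 windows in the table and 9.23% of the windows of genes tested here. MYCN held the only E2F matches among the members, TTTGGCGC 176 bases before the start and GCGCGAAA, the reverse complement of TTTCGCGC, 172 bases before it, and these share 4 bases. An E2F match was in 1 of the 12 member windows (8.33%), 3.32% of all windows and 4.86% of those of genes tested here. The MXD3 window held neither motif, and the MXD4 window held the E-box alone. GC content of the member windows ran from 55% to 76%. A match is a run of letters and no evidence of binding, and none of these data measure binding.

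Values are TPM, abundances that the authors corrected for transcript length and scaled to 1000000 per library, so levels can be set side by side between genes, and a large rise elsewhere lowers the rest. TPM keeps no read number, so the depth is unknown. Mitochondrially encoded genes took 28.4% to 31.6% of TPM in transfected and 31.3% to 37.6% in untransfected libraries, with untransfected replicate 3 highest. A larger share there lowers all other genes on the fixed total. Across genes, the deviations of transfected replicate 1 from its group mean went with those of untransfected replicate 3 (r = 0.31), and each of these 2 libraries correlated least with the others of its group. Members that passed are therefore also given without both. The HEK293 genes KRT8, KRT18, VIM, NEFL, NEFM, CDH2 and PAX2 were all detected, PAX2 lowest at 4.64 ± 0.710 TPM in untransfected cells (SD, n = 3). Among markers of other cell types, untransfected then transfected means (SD, n = 3) were 0.120 ± 0.0819 and 0.940 ± 0.201 TPM for the liver gene ALB, and the matrix genes COL1A1 and LUM had 14.8 ± 0.604 and 13.0 ± 0.856 TPM and 13.0 ± 2.61 and 9.87 ± 2.37 TPM. Their part in the results was not tested.

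The test was limma on log2(TPM + 1) for genes that reached 1 TPM in 3 or more libraries, with p-values adjusted by Benjamini-Hochberg across the 16145 genes that did and called below 0.05. A log2 fold below is a difference on this log2(TPM + 1) scale. Of the 10 members, 9 were tested and MYCN fell below the filter. Of these 9, 2 passed as lower and 0 as higher. Over all tested genes 10.2% passed as lower and 20% as higher, 30.2% in all. With no adjustment, 2 members were lower and 2 higher at p below 0.05, against 15.3% and 26.8% of all tested genes. The median log2 fold of the tested members was 0.09 and that of all tested genes 0.05. With the 3 other scalings tried 45.9% to 51.1% of all calls were higher, against 66.3% here.

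**Figure D1:**
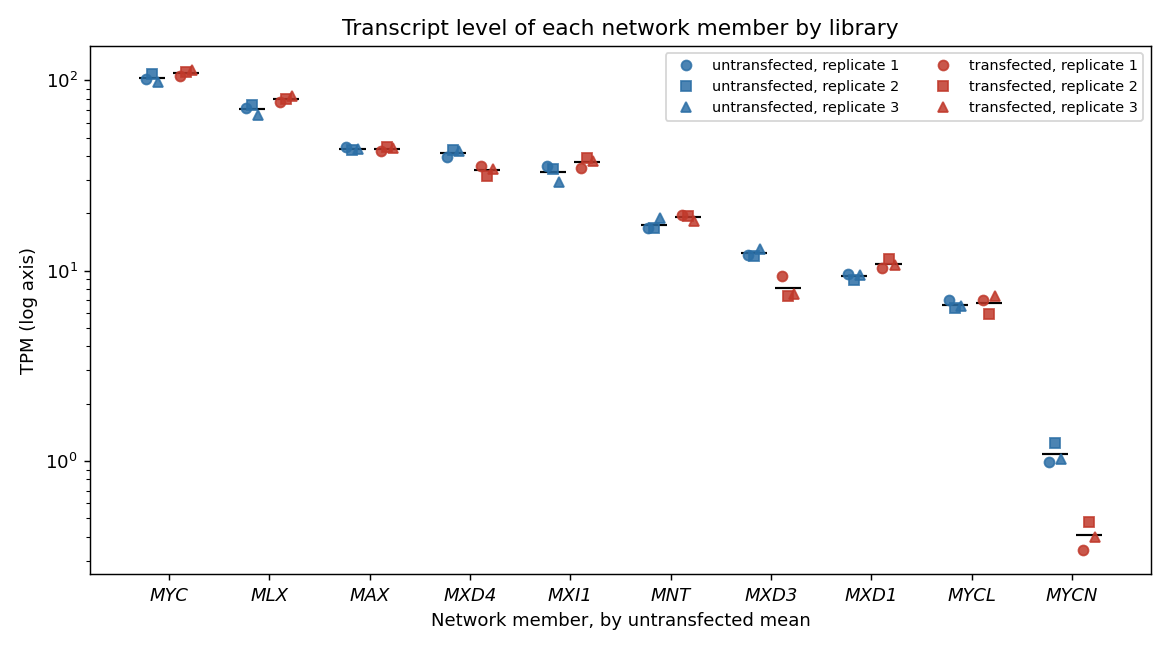
TPM on a log axis for each of the 10 members, ordered by the untransfected mean; blue symbols are the 3 untransfected and red symbols the 3 transfected libraries, with the shape giving the replicate and the black bar the mean. The red symbols of MXD4, MXD3 and MYCN sit below all blue ones, those of MLX and MXD1 sit above, and those of MYC, MAX, MXI1, MNT and MYCL overlap with them.

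Among the activators, MYC (ENSG00000136997), which couples growth signals to cell division, was the most abundant member of the network. Its TPM was 101.9, 107.4 and 98.5 in untransfected replicates 1 to 3 and 104.9, 110.6 and 113.3 in transfected replicates 1 to 3. The groups overlapped, since untransfected replicate 2 lay above transfected replicate 1. The log2 fold was 0.09 with SE 0.058 (limma, adjusted p = 0.258), and its 95% interval ran from -0.04 to 0.23. The direction depended on scaling, with -0.04 after quantile normalization and 0.00 on a total without mitochondrial and the 20 most abundant genes. A larger absolute fold was found in 72.4% of tested genes.

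MYCN (ENSG00000134323, chromosome 2, 15940564 to 15947007, GRCh38), the paralog best known from neural and embryonic tissue, was near the lower end of detection. It was listed at 0.99, 1.25 and 1.02 TPM in untransfected replicates 1 to 3 and at 0.34, 0.48 and 0.40 in the transfected ones. Every transfected value was below every untransfected value, and the transfected mean was 0.374 times the untransfected mean. MYCN had 1 TPM or more in 2 libraries only and so was not part of the test. With no filter on low values its log2 fold was -0.57 (limma, adjusted p = 0.00336), on a scale that compresses so low a gene. On a total without mitochondrial and the 20 most abundant genes MYCN reached the filter, with a log2 fold of -0.76 (limma, adjusted p = 0.00361). It met the filter there through the untransfected libraries, where it was higher. That adjusted p is therefore no separate support for the fall. Read numbers behind these values are unknown. Its exons share 98 bases with the antisense gene MYCNOS, which had no listed value.

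MYCL (ENSG00000116990, chromosome 1, 39895426 to 39902256), the third paralog, had 6.99, 6.34 and 6.52 TPM in untransfected and 7.04, 5.93 and 7.39 TPM in transfected replicates 1 to 3. The transfected values spanned the untransfected ones on both sides. Its log2 fold of 0.03 with SE 0.098 did not pass (limma, adjusted p = 0.855) and was -0.05 to 0.11 over the other settings tried. MYC made up 92.7% to 93.4% of the summed TPM of the 3 paralogs in untransfected and 93.4% to 94.5% in transfected libraries. MYCN made up 0.901% to 1.09% and 0.303% to 0.410%.

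MAX (ENSG00000125952, chromosome 14, 65006174 to 65102695), the obligate partner that activators and repressors share, had the least variable level of the network. It stood at 44.7, 42.9 and 43.5 TPM in untransfected and at 42.6, 44.6 and 43.8 TPM in transfected replicates 1 to 3. The log2 fold was 0.00 to 2 decimals, with a 95% interval of -0.13 to 0.12 (limma, adjusted p = 0.994), and 99.8% of tested genes had a larger absolute fold. Its sign changed between settings, from -0.09 without mitochondrial and the most abundant genes to 0.02 without transfected replicate 1. MAX TPM amounted to 0.186 to 0.200 of the summed TPM of its MYC, MXD, MXI1 and MNT partners in untransfected libraries and to 0.191 to 0.198 in transfected ones.

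Among the repressors, MXD3 (ENSG00000213347, chromosome 5, 177301461 to 177312757), an unusual family member known for expression in dividing cells, had the largest absolute fold of the tested members. It had 12.0, 12.0 and 13.0 TPM in untransfected replicates 1 to 3, and 9.40, 7.38 and 7.56 TPM in transfected replicates 1 to 3. The highest transfected value, in replicate 1, was still below every untransfected value. MXD3 fell by 0.55 on the log2 scale with SE 0.10 (limma, adjusted p = 0.00535), and 8.49% of tested genes had a larger absolute fold. The call held under all 16 other settings, with a log2 fold between -0.66 and -0.41 and an adjusted p between 0.00257 and 0.0263, and without transfected replicate 1 and untransfected replicate 3 it was -0.62. MXD3 exons share 1158 bases, 22.5% of its exonic length, with PRELID1 on the opposite strand and 926 bases with RAB24 on the same strand. PRELID1, a mitochondrial lipid transfer gene, rose from 445.6 ± 16.1 to 558.4 ± 7.10 TPM (n = 3 each), the opposite direction to MXD3, and RAB24 was at 2.78 ± 0.631 and 2.30 ± 0.562 TPM. The strand setting of the counting is not given in the sources used here, so MXD3 values are uncertain to that extent.

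MXD4 (ENSG00000123933, chromosome 4, 2247432 to 2262294) was the most abundant repressor gene of untransfected cells. It had 39.4, 43.1 and 42.7 TPM in untransfected and 35.4, 31.3 and 34.2 TPM in transfected replicates 1 to 3, with no overlap. MXD4 fell by 0.30 on the log2 scale with SE 0.070 (limma, adjusted p = 0.0136). It passed under 15 of the 16 other settings, and the call was lost without transfected replicate 2, the lowest library (log2 fold -0.25, adjusted p = 0.0560). Without transfected replicate 1 and untransfected replicate 3 it was -0.32.

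MXI1 (ENSG00000119950, chromosome 10, 110207605 to 110287365), a repressor known as a hypoxia-responsive antagonist of MYC, did not pass. Its TPM was 35.4, 34.4 and 29.3 in untransfected and 34.6, 39.2 and 37.7 in transfected replicates 1 to 3. The values overlapped through transfected replicate 1. The log2 fold was 0.17 with SE 0.086 (limma, adjusted p = 0.174) and 0.09 without untransfected replicate 3, the library with the lowest MXI1.

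MXD1 (ENSG00000059728, chromosome 2, 69897688 to 69942945), the founding MXD gene, had 9.56, 8.93 and 9.50 TPM in untransfected and 10.3, 11.5 and 10.8 TPM in transfected replicates 1 to 3. The groups did not overlap, yet the log2 fold of 0.20 with SE 0.076 missed the threshold (limma, adjusted p = 0.0857) and did so under all 16 other settings. MNT (ENSG00000070444, chromosome 17, 2384060 to 2401118), the broadly expressed repressor that balances MYC in growing cells, had 16.8, 16.7 and 18.8 TPM in untransfected and 19.6, 19.4 and 18.3 TPM in transfected replicates 1 to 3. Its groups overlapped through untransfected replicate 3, and the log2 fold was 0.13 with SE 0.073 (limma, adjusted p = 0.218). MNT exons share 1065 bases, 12.2% of their length, with the antisense gene AC006435.1, which had no listed value.

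MLX (ENSG00000108788, chromosome 17, 42567068 to 42573239), the hub of the glucose-sensing branch, had 71.7, 73.9 and 65.7 TPM in untransfected and 76.6, 80.1 and 82.8 TPM in transfected replicates 1 to 3. All transfected values were higher. The log2 fold was 0.18 with SE 0.064 and missed the threshold (limma, adjusted p = 0.0671), but passed without transfected replicate 1 and untransfected replicate 3 (log2 fold 0.16, adjusted p = 0.0268). It missed under the other 15 settings, and the log2 fold was 0.11 with median-ratio scaling, 0.074 with quantile normalization and 0.089 without the abundant genes (adjusted p of 0.0519 to 0.178). Over all 16 settings the log2 fold was 0.12 to 0.24 for MXD1, 0.080 to 0.22 for MXI1 and 0.043 to 0.18 for MNT. MLX exons share 770 bases, 18.1% of their length, with PSMC3IP on the opposite strand, a recombination cofactor gene that rose from 73.2 ± 0.410 to 82.9 ± 1.48 TPM (log2 fold 0.18). How far reads of the overlap were divided between them was not tested. Counting MLX, 4 of the 9 tested members had groups with no overlap, 2 higher and 2 lower, where 46.5% of all tested genes were so separated, 29.2% upward and 17.3% downward.

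**Figure D2:**
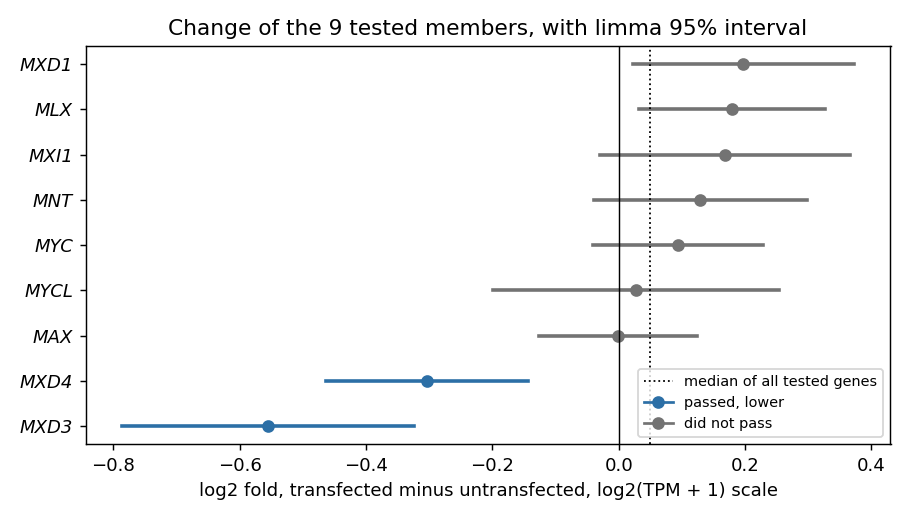
Log2 fold of each of the 9 tested members on the log2(TPM + 1) scale (horizontal axis, transfected minus untransfected), with bars for the limma 95% interval; blue marks members that passed as lower and grey those that did not pass. The intervals of MXD3 and MXD4 lie wholly below 0, and the point of MAX lies on 0.

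The order of levels changed in the middle of the list. In untransfected cells it was MYC, MLX, MAX, MXD4, MXI1, MNT, MXD3, MXD1, MYCL and MYCN by mean TPM, and MAX and MXD4 were the only neighbours whose values overlapped. In transfected cells MXI1 stood before MXD4 and MXD1 before MXD3, while the other places were the same. There the overlapping neighbours were MXI1 with MXD4 and MXD3 with MYCL. The ratio of MXI1 to MXD4 TPM was 0.898, 0.798 and 0.688 in untransfected and 0.978, 1.25 and 1.10 in transfected replicates 1 to 3.

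The repressor pool differed in makeup between the groups. Summed over MXD1, MXD3, MXD4, MXI1 and MNT, the TPM were 113.1, 115.1 and 113.3 in untransfected and 109.4, 108.7 and 108.5 in transfected replicates 1 to 3. MXD3 and MXD4 together were 45.5% to 49.1% of that sum in untransfected and 35.6% to 40.9% in transfected libraries. Summed repressor TPM over summed MYC, MYCN and MYCL TPM was 1.03, 1.00 and 1.07 in untransfected and 0.974, 0.929 and 0.896 in transfected replicates 1 to 3. No transfected ratio reached the lowest untransfected one. The ratio moved through both sums and not through MXD3 and MXD4 alone. The sum of MYC, MYCN and MYCL was 110.3 ± 4.48 TPM in untransfected and 116.8 ± 4.43 TPM in transfected libraries (SD, n = 3). MYC made up most of that sum, and its own change did not pass. These sums were formed from the members' own changes and were not tested. They describe transcripts and not protein.

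**Figure D3:**
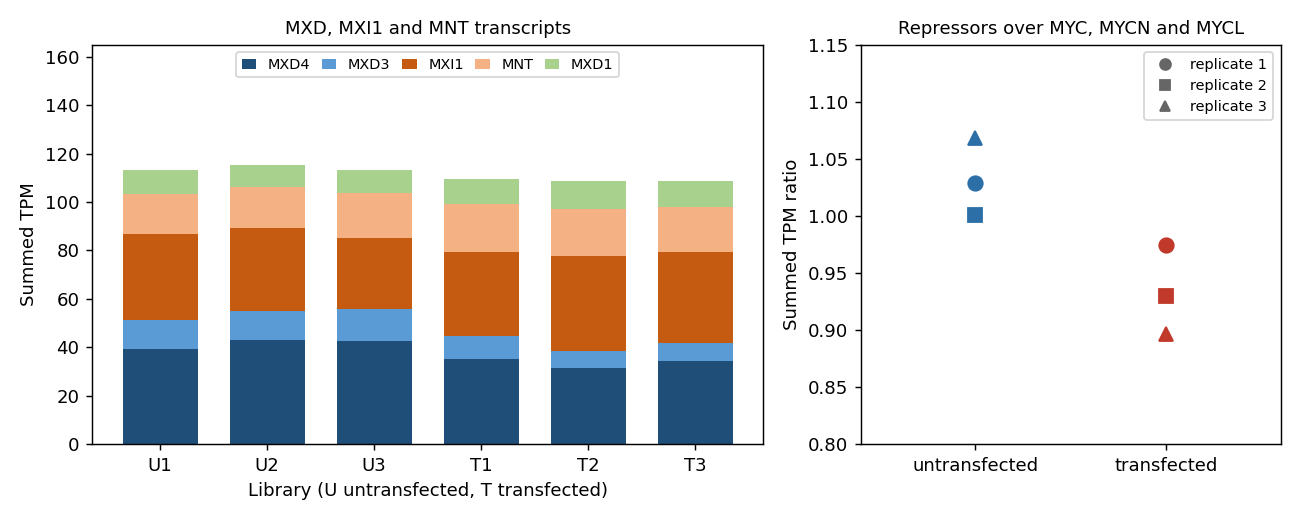
Left, summed TPM of the 5 repressor genes stacked by gene in each library (U untransfected, T transfected, replicates 1 to 3); right, the ratio of that sum to the summed TPM of MYC, MYCN and MYCL, on an axis that does not start at 0, with 1 symbol per library. The dark and light blue segments of MXD4 and MXD3 are shorter in the transfected libraries, and the transfected ratios of 0.896 to 0.974 lie below the untransfected ones of 1.00 to 1.07.

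Of 3 partners outside the chosen set, 1 passed as higher and 0 as lower. MGA, a large MAX partner that works in a Polycomb repressor complex, went from 22.6 ± 0.410 to 26.6 ± 2.05 TPM with transfection (SD, n = 3), with a log2 fold of 0.22 (limma, adjusted p = 0.0466). That call was lost when any 1 library was left out (adjusted p of 0.0592 to 0.151) and under all 3 other scalings (0.0670 to 0.147). MLXIP, the MondoA gene, had a log2 fold of 0.00 and MLXIPL, the ChREBP gene, one of -0.18, and neither passed.

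Of 7 textbook targets of MLX with MondoA or ChREBP, only 4 were listed and tested. Of these 4, 3 were higher and 0 lower (also 0 lower without adjustment), where 20% of all tested genes passed as higher. TXNIP, which restrains glucose uptake and binds thioredoxin, had 66.2, 70.5 and 56.6 TPM in untransfected and 140.1, 152.8 and 158.6 TPM in transfected replicates 1 to 3, a log2 fold of 1.22 (limma, adjusted p = 0.000162). Its close relative ARRDC4 rose from 93.0 ± 11.2 to 148.5 ± 5.84 TPM (log2 fold 0.68), and KLF10, a transcription factor that ChREBP and TGF-beta induce, from 14.0 ± 0.592 to 36.2 ± 0.674 TPM (1.31). The glycolytic regulator PFKFB3 was at 18.7 ± 1.18 and 20.8 ± 0.680 TPM and did not pass. TXNIP, ARRDC4 and KLF10 rose while transcripts of MLX, MLXIP and MLXIPL did not pass, and all 3 calls held under each of the 16 other settings.

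Textbook MYC-activated genes passed as higher in 20 cases and as lower in 2, out of 45 tested, against 20% and 10.2% of all tested genes, with a median log2 fold of 0.21 against 0.05. The 4 with the largest increases were RRS1, a ribosome assembly factor gene (40.5 ± 2.28 to 73.3 ± 4.47 TPM, log2 fold 0.84), DKC1, which modifies ribosomal RNA (73.9 ± 3.74 to 119.1 ± 4.47, 0.68), MRTO4, a large-subunit assembly factor (126.2 ± 12.7 to 186.7 ± 4.28, 0.57), and NCL, the nucleolin gene (726.5 ± 28.7 to 1065.5 ± 51.0, 0.55). The 2 lower genes, named after their values were seen, were the cell cycle regulator E2F1, from 100.3 ± 3.97 to 74.0 ± 4.67 TPM (-0.43), and SHMT2, a mitochondrial serine enzyme gene, from 126.3 ± 4.75 to 104.5 ± 4.18 (-0.27). The higher count was 12 without transfected replicate 3 and 14 without transfected replicate 2, and 7 to 8 were lower with the other 3 scalings, 6 without untransfected replicate 3 and 7 without that library and transfected replicate 1. The E-box CACGTG was in 32.8% of the windows of these genes, against 9.23% of the windows of genes tested here and 7.26% of all windows. The share was not compared between the genes that rose and the others. All genes of the list were chosen as MYC targets. Many of them make ribosomes, so they overlap with growth genes in general, and this list does not measure MYC protein activity.

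Textbook MYC-repressed genes passed as higher in 2 cases and as lower in 2, out of 12 tested, with a median of 0.03, where 20% and 10.2% of all tested genes passed as higher and lower. GADD45A, a stress and growth-arrest gene, rose from 94.8 ± 3.14 to 154.9 ± 2.30 TPM (log2 fold 0.70) and CLU, the secreted chaperone clusterin, from 25.9 ± 0.828 to 32.6 ± 1.02 (0.32). NDRG1, a stress-induced gene named for its repression by MYCN, fell from 28.2 ± 0.302 to 22.1 ± 0.818 TPM (-0.34) and the cyclin D1 gene CCND1 from 56.0 ± 0.789 to 46.2 ± 1.34 (-0.27). The cell cycle inhibitor gene CDKN1A was at 96.5 ± 3.62 and 96.7 ± 4.10 TPM, named after its values were seen.

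Of 20 coactivators and chromatin partners, 10 were higher and 0 lower (1 lower without adjustment), against 20% and 10.2% of all tested genes, led by the acetyltransferase gene CREBBP (26.7 ± 0.776 to 43.1 ± 2.30 TPM, log2 fold 0.67), the helicase gene RUVBL1 (0.46), EP300 (0.37) and the elongation factor gene PAF1 (0.32). The higher count was 6 after quantile normalization or on the total without abundant genes, and 6 without transfected replicate 1, 2 or 3 or untransfected replicate 1. Over all tested genes 2930 and 2749 were higher with those scalings and 1820 to 2644 without those libraries, against 3236. Of 20 genes of MYC protein turnover, 7 were higher and 0 lower (0 also without adjustment), beside the same 20% and 10.2%. USP36, the nucleolar deubiquitinase that stabilizes MYC, rose from 38.3 ± 0.600 to 58.8 ± 2.78 TPM (0.60). PIM1, a kinase gene (0.42), and CIP2A, an inhibitor of the phosphatase that destabilizes MYC (0.40), also rose. The higher count was 4 without transfected replicate 3 and 11 without transfected replicate 1 and untransfected replicate 3, and 1 to 3 were lower under the other scalings. Over all tested genes 1873 and 3593 were higher under those omissions, in that order. Under the other scalings 2874 to 3241 were lower, against 1644.

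Of 13 tested regulators of MYC mRNA and its locus, 7 were higher and 0 lower (0 also without adjustment), again beside 20% and 10.2%. PVT1, the long noncoding RNA gene beside MYC, had 0.99, 0.98 and 1.06 TPM in untransfected and 2.14, 2.26 and 2.39 in transfected replicates 1 to 3, a log2 fold of 0.70 (limma, adjusted p = 0.00226), though its level stayed near the filter. It met that filter through the transfected libraries, where it was higher, so its adjusted p is no separate support for the rise. Under a filter of 5 TPM it was not tested, and the higher count was 6. MYCBP2, a large ubiquitin ligase gene (0.39), CTCF, the chromatin insulator gene (0.32), and FUBP1, which binds DNA upstream of MYC (0.32), also rose. The SIN3 and HDAC corepressor, which the MXD proteins recruit, had 5 higher and 1 lower of 19, with a median of 0.07, close to the 20%, 10.2% and 0.05 of all tested genes. SAP30 rose from 50.8 ± 4.60 to 71.4 ± 2.62 TPM (0.48), ARID4B by 0.40 and BRMS1 by 0.36 on the log2 scale, and SUDS3 fell by 0.32, while the scaffold genes SIN3A and SIN3B did not pass. Without transfected replicate 2 the counts were 3 higher and 0 lower, and without untransfected replicate 1 also 0 lower.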

How the data were processed

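Total RNA from 6 libraries was sequenced as 75 nt stranded pairs, per the labels' protocols. The authors deposited TPM per gene; STAR and GRCh38 are named in the submitters' processing notes, and how genes were counted, with which strand setting and annotation, is not stated there or in the labels. The table held 18298 rows; 134 that repeat an Ensembl ID were dropped. The 16145 genes that reached 1 TPM in 3 or more libraries were compared by limma 3.58.1 in R 4.3.3 on log2(TPM + 1), with group as the only term, a mean-variance trend, two-sided, and Benjamini-Hochberg adjustment at 0.05. On simulated data for 16145 genes, with 100 changed at each size, 46% of changes of 0.5 and 84% of changes of 1 (log2) were recovered. In the real data 4880 genes were called, so the adjustment was stricter in the simulation. Its rates therefore do not give the power of the real test. The members and lists were chosen with earlier results of these data known. Named genes were all members, up to 4 passing genes per list by size of change (or the 2 most abundant), and the 5 genes closest in pattern to MYC and to the members with the largest increase and decrease; MLXIPL, PFKFB3, SIN3A, SIN3B, E2F1, SHMT2, CDKN1A, the overlapping genes and the cell type markers were named outside this rule after their values were seen, and 2 genes are not reported here. Coordinates and overlaps are from GENCODE release 29 (GRCh38). Alternatives were pseudocounts of 0.1 and 5, no filter, a filter of 5 TPM, 3 other scalings, no trend, a replicate block and single libraries left out.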

Additional observations from a re-analysis of the deposited data

How the results depend on the processing

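MXD3 passed under all 16 other settings, and MXD4 under all but the omission of transfected replicate 2. The count of lower members was 1 to 2 with single libraries left out. It was 3 with no filter on low values and on the total without mitochondrial and the 20 most abundant genes, where MYCN entered. On that total MYCN met the filter through the untransfected libraries, where it was higher. The higher count was 0 throughout except for 1 (MLX) when transfected replicate 1 and untransfected replicate 3 were left out together. That alternative was chosen after seeing the data. Under it MYC turnover genes had 11 higher, MYC mRNA regulators 1 lower and MYC-activated genes 7 lower. The deviations of same-numbered libraries correlated at -0.18, 0.11 and -0.16. With 3 libraries per group these values cannot show whether the replicate numbers pair the libraries. With the replicate number as a block, 2392 genes were higher and 1137 lower, MXD3 (adjusted p = 0.0136) and MXD4 (0.0482) passed, and the counts became 0 higher for MGA, MLXIP and MLXIPL, 0 lower for other bHLH-zipper factors and 6 higher for coactivators. With median-ratio scaling, quantile normalization and the total without mitochondrial and the 20 most abundant genes, in that order, all genes lower were 2874, 2881 and 3241 (1644 as reported) and all genes higher 2999, 2930 and 2749 (3236), so that 51.1%, 50.4% and 45.9% of calls were higher, against 66.3%. In the same order, MGA and its list had 0, 0 and 0 higher, coactivators 2, 2 and 2 lower, turnover genes 1, 2 and 3 lower, MYC mRNA regulators 1, 2 and 1 lower and MYC-activated genes 7, 8 and 8 lower. Other bHLH-zipper factors had 1 higher with median-ratio scaling and without the abundant genes, the corepressor 3 lower with quantile normalization and 2 without the abundant genes, and coactivators 6 higher under both of these. Without a variance trend MGA and its list had 0 higher and other bHLH-zipper factors 1 lower.

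With single libraries left out, all genes higher were 1820 to 2955 and lower 965 to 2027, both lowest without transfected replicate 2 (1873 and 1093 without transfected replicate 3; 1034 and 1086 lower without untransfected replicates 1 and 2). Ranges were 0 to 0 higher for MGA, MLXIP and MLXIPL, 1 to 2 higher and 0 to 2 lower for other bHLH-zipper factors, 3 to 5 higher and 0 to 1 lower for the corepressor, 6 to 9 higher for coactivators, 4 to 8 higher and 0 to 1 lower for turnover, 5 to 8 higher and 0 to 1 lower for MYC mRNA regulators, and 12 to 19 higher and 2 to 6 lower for MYC-activated genes. The repressor to activator ratio was 1.01 to 1.05 in untransfected and 0.913 to 0.952 in transfected cells. Changes of sign were small, on the log2 scale. MYC was -0.0405 with quantile normalization. In the order of scalings above MYCL was -0.0308, -0.00559 and -0.0548 and MLXIP -0.0611, -0.0501 and -0.0858; without transfected replicate 1 and untransfected replicate 3 MYCL was -0.00622, MAX 0.0139 and MLXIP -0.00976; and with single libraries left out MYCL was -0.0282 to 0.110, MAX -0.0156 to 0.0172 and MLXIP -0.0333 to 0.0277. EMC4 was -0.0120 without the abundant genes. CERS2, RYK and CRTAP were -0.0390, -0.00413 and -0.0346 with quantile normalization and -0.00479, -0.00822 and -3.12e-05 without the abundant genes. The cause of these differences was not tested. Depth is unknown, so the counting error of low values such as those of MYCN and PVT1 cannot be given.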

Other observations

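Patterns over the 6 libraries were compared by the root mean square difference of log2(TPM + 1), centred on each gene's mean, over genes whose mean TPM was 5 or more. The 5 genes closest to MYC were EMC4, CERS2, SETDB1, RYK and CRTAP, with differences of 0.0114 to 0.0150, and like MYC none of them passed (limma, adjusted p of 0.261 to 0.402). The 5 closest to MXD3 were NME3, SNCB, SMPD1, AGRN and ARHGEF16, with differences of 0.0424 to 0.0609. NME3, a nucleoside diphosphate kinase gene, had 40.3, 42.7 and 46.3 TPM in untransfected and 31.8, 25.5 and 27.1 TPM in transfected replicates 1 to 3, so that, as for MXD3, transfected replicate 1 was the highest of its group. The 5 closest to MXD1 were MBD2, LINC00863, AMZ2, CHD8 and LEPROTL1, with differences of 0.0160 to 0.0239. Closeness over so few libraries is a description and names no shared control. The genes were picked by these same values, so their like test results and order of replicates follow from the selection.

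Of 8 tested other E-box-binding factors of the same structural class, 2 passed as higher and 2 as lower, where 20% and 10.2% of all tested genes did, so the counts say little about the class. TFE3, a regulator of lysosome genes, had 30.2, 31.1 and 31.1 TPM in untransfected and 51.1, 45.9 and 48.7 TPM in transfected replicates 1 to 3 (log2 fold 0.64, limma, adjusted p = 0.000495), a larger absolute change than that of any tested network member. TFAP4, a known MYC target, rose from 8.67 to 11.5 TPM (0.37). SREBF1 and SREBF2, which drive lipid and cholesterol synthesis, fell by 0.32 and 0.19 on the log2 scale, calls that were lost without any 1 transfected library.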
